A study of Mus musculus with 4 samples.

Results

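The 7 genes described here, Cytl1, Gkn3, Klk8, Klk10, Clu, Adh7 and Nupr1, encode mostly secreted proteins and enzymes and were selected on earlier values of these same data, their levels and shares of positive cells by vessel type and organ, as a signature of the endothelium of a large artery. They are 7 of the 31053 gene rows in each deposited matrix. Their levels by vessel type and tissue are therefore given as a description, with no test of the pattern they were picked for. Nupr1 is a small nuclear protein and neither secreted nor an enzyme, so the working name holds for 6 of the 7 genes.

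Single-cell RNA was counted in eYFP-positive endothelial cells sorted from 2 organs of female C57/B6J mice. The organs were the whole aorta (arch, thoracic and abdominal parts) and the left lobe of the lung. Littermates described only as negative for Cdh5 set the sort gate. All mice belonged to an endothelial lineage tracing line that the submitters describe as Apoe knockout, so the controls carry that background too, and all received Western diet over 5 weeks. The 2 genotypes were Oct4 wild-type in endothelial cells, from 2 mice, and Oct4 knockout in endothelial cells, from 3 mice, and the cells of a group were captured together as a single 10x Chromium library after digestion with 1 µg/mL of the transcription blocker actinomycin D. With 4 libraries, 1 per combination of tissue and genotype, no difference has a replicate check, genotype or tissue cannot be told apart from library, no p-value is given, and every interval covers counting error only.

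Endothelial cells line all vessels but differ with the vessel. In the aorta they face fast pulsatile flow and sit on an elastic wall, and they express matrix, secreted and metabolic genes that capillary cells largely lack, while in the lung the capillaries are built from aerocytes, large cells specialised for gas exchange, and smaller general capillary cells. Endothelial genes that mark large arteries are read in single-cell data to tell the cells of the main vessel from those of the small vessels that feed its wall and the surrounding fat.

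The deposited matrices held 449 barcodes for the wild-type aorta, 1623 for the knockout aorta, 800 for the wild-type lung and 529 for the knockout lung, with 1034161 to 4483756 unique molecular identifiers (UMIs, 1 per captured RNA molecule) each. Levels are given as CPM, the UMIs of a gene per 1000000 UMIs of the same cells. Cells with at least 500 UMIs and at most 15% mitochondrial UMIs were clustered within each tissue with the 7 genes left out of the clustering, and the endothelial-like cells numbered 346, 1210, 702 and 469 in the same order, at median depths of 1627.5 to 2252.5 UMIs. Pairs of libraries shared at most 2 barcodes. In each endothelial-like cluster the 5 best-detected of the 11 fixed pan-endothelial markers were averaged. Their mean detection was 72.9% to 93.3% of cells. Transcripts of Pou5f1, which encodes Oct4, were counted 0 times in the wild-type aorta, 1 time in the knockout aorta, 2 times in the wild-type lung and 1 time in the knockout lung, so they give no check of the genotype labels. The summed level of 10 fibroblast markers was 846 CPM in wild-type and 1296 CPM in knockout aortic endothelial-like cells, with Dpt at 0 in both, and that of 5 erythroid markers was 2911 and 10.9 CPM. Their part in the values below was not tested.

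Aortic endothelial-like cells fell into 8 clusters. Cluster 7 was capillary-like (led by Rgcc, Car4 and Gpihbp1), cluster 4 venous-like (Plac8, Ackr1) and cluster 9 arterial-like (Alpl, Sema3g). Clusters 0, 1, 3, 5 and 6 had no class name of their own and were led by Ahsg and Bmp4, by Serpina1b and Ptprj, by Cxcl2 and Fos, by Thbs1 and Frzb, and by Gcnt1 and Hoxa9. Clusters 0, 1, 3, 5, 6 and 9 together, 250 wild-type and 954 knockout cells, are called the main aortic clusters below. In each cluster the 5 best-detected of the 13 fixed arterial markers, which can differ between clusters, were averaged. Their mean detection was 54.0% to 76.1% of cells in the main aortic clusters, against 40.0% in venous-like and 22.0% in capillary-like cells. Lymphatic-like cells (cluster 2) were kept apart. So was cluster 8, which carried endothelial markers together with the fibroblast genes Dcn and Lum among its leading genes. It held 2.48% of kept wild-type and 7.97% of kept knockout aortic cells at a median of 5245 UMIs, and leaving it out was chosen after its leading genes had been seen.

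Cytl1 encodes cytokine-like protein 1, a small secreted protein, on chromosome 5 (mm10 chr5:37735519-37739820, plus strand, protein coding). It was measured at 21131 CPM (95% Poisson interval 20782 to 21484) in the main aortic clusters of the wild-type library and at 18808 CPM (18640 to 18977) in the knockout library, where 98.4% (96.0 to 99.6) and 97.9% (96.8 to 98.7) of cells had at least 1 UMI (in parentheses after a share, its exact 95% Clopper-Pearson interval). In capillary-like cells it was measured at 164 and 68.0 CPM and in lymphatic-like cells at 59.4 and 293 CPM, and 64 of the 116 knockout lymphatic-like UMIs came from 1 cell. Venous-like cells lay between, at 2171 CPM (1884 to 2490) and 2924 CPM (2760 to 3096), with 78.4% (61.8 to 90.2) and 81.6% (74.5 to 87.4) of cells positive. The order of main aortic clusters over venous-like over capillary-like cells was the same in both genotypes, and no cluster of one class overlapped those of another.

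Because Cytl1 has such a high level in the main aortic clusters, a share of positive cells elsewhere has to be read against free RNA in the droplets. Capillary-like cells were positive for Cytl1 in 20.3% (10.98 to 32.8) of wild-type and 9.62% (4.71 to 17.0) of knockout cells, at median depths of 1128 and 1336.5 UMIs against 2401.5 and 2329 in the main aortic clusters. Thinned to 1000 UMIs per cell, which left out 25 of 59 and 21 of 104 shallower capillary-like cells and 36 of 250 and 68 of 954 cells of the main clusters, these shares were 8.82% (1.86 to 23.7) and 6.02% (1.98 to 13.5), against 98.1% and 97.7% in the main aortic clusters. Whether free RNA gives these capillary-like UMIs was not tested.

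Within the main aortic clusters Cytl1 was lowest in the arterial-like cluster 9, at 14958 CPM in wild-type and 11056 CPM in knockout cells. The other 5 clusters ranged from 16934 to 26567 CPM in wild-type and from 16021 to 22686 CPM in knockout cells. The 250 bases before the start of Cytl1 are given from the RefSeq annotation (GRCm38.p6, chr5:37735269-37735518, plus strand). They are shown because Cytl1 was highest in the main clusters of the aorta and in the large-vessel-like cells of the lung (lung values below). Its 1 match to CCACCC, the core that Krüppel-like factors bind, is in capitals, 98 bases before the start.

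Cytl1: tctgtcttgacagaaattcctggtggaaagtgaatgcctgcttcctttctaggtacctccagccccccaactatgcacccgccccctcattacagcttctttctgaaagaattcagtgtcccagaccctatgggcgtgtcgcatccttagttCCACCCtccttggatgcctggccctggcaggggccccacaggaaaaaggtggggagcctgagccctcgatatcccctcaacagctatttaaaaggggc

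These windows were searched on both strands for 6 short motifs. They were the core of the box that positions many start sites, TATAAA, the Krüppel-like factor core, CCACCC, the octamer that Oct4 and its relatives bind, ATGCAAAT, the core bound by SOX factors, ACAAAG, the core bound by GATA factors, AGATAA, and the core bound by ETS factors, CCGGAA. RefSeq promoter entries were matched for 6 of the 7 genes. CCACCC was in 3 of these 6, Cytl1, Klk10 and Adh7, and in 28.1% of all 32851 promoter windows of the same length. The octamer was in 0 of 6 and in 1.60% of all windows. A match is a string of letters and not a measured site, and no matches overlapped in the windows shown.

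Gkn3 encodes gastrokine 3, a secreted protein with a BRICHOS domain known from the stomach, on chromosome 6 (chr6:87383256-87388935, minus strand). In the main aortic clusters it was measured at 354 CPM (310 to 402) in wild-type and 463 CPM (437 to 491) in knockout cells, with 39.2% (33.1 to 45.6) and 43.0% (39.8 to 46.2) of cells positive (22.4% and 29.7% after thinning). It was found in 0 of 59 and 0 of 104 capillary-like cells, which allows a share of up to 5.08% and 2.88%. It was also at 0 UMIs in the wild-type venous-like and lymphatic-like cells, and at 4.96 and 2.53 CPM in the knockout venous-like and lymphatic-like cells. Against the limit that 0 counts allow, 3 UMIs per library, the main clusters were at least 9.37-fold higher than the capillary-like cells in the wild-type and at least 24.98-fold higher in the knockout. Among endothelial-like cells Gkn3 was thus found almost wholly in the main aortic clusters. Among the main clusters it was lowest in cluster 1, at 176 and 237 CPM, and the other 5 clusters ranged from 323 to 507 CPM in wild-type and from 376 to 950 CPM in knockout cells, with cluster 6 the highest in both. In the mixed cluster 8 it was at 0 UMIs in the 10 wild-type cells and at 405 CPM in the 125 knockout cells.

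**Figure D1:**
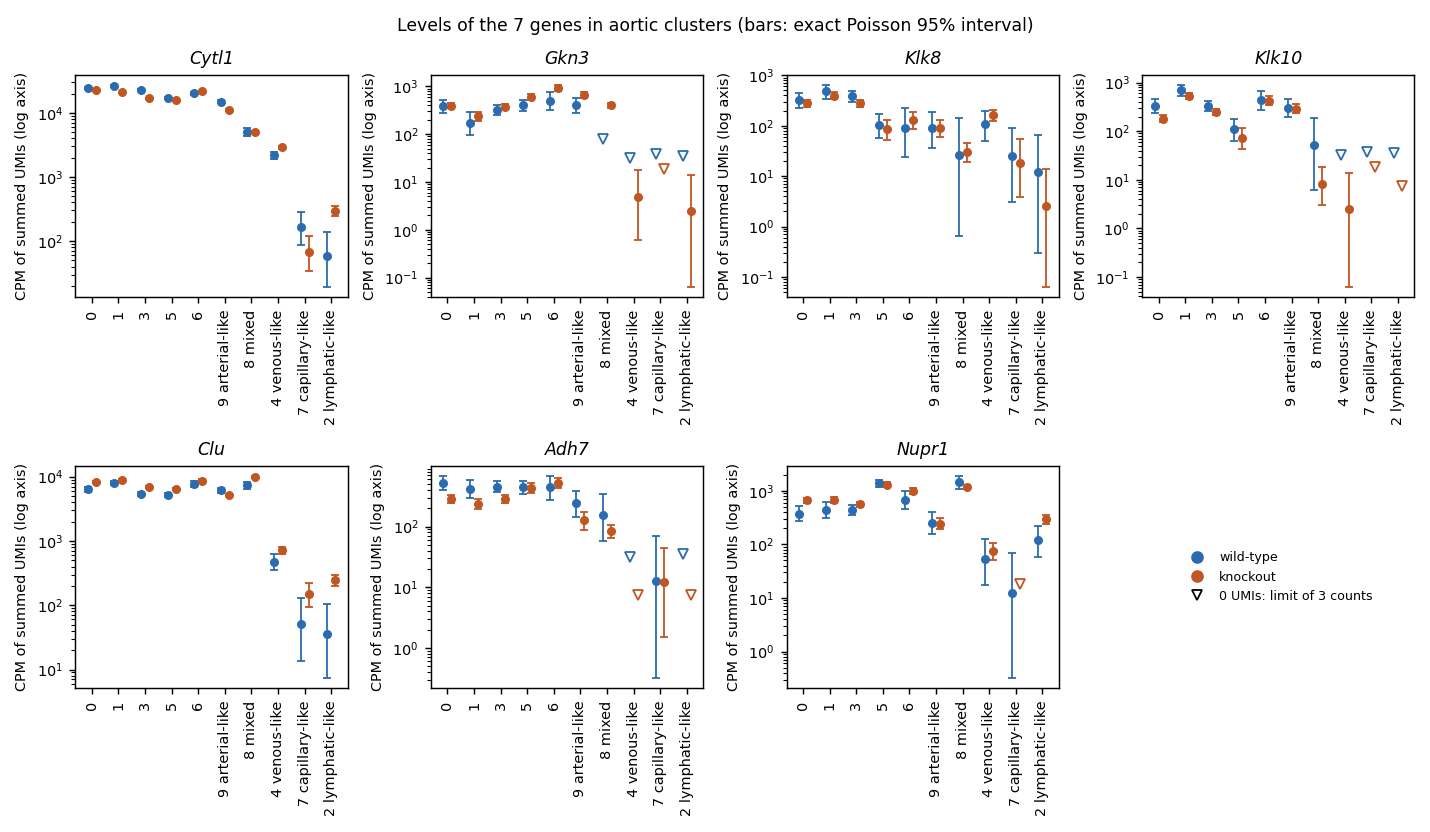
Level of each of the 7 genes by aortic cluster in CPM of summed UMIs on a log axis, with 95% Poisson intervals, wild-type in blue and knockout in orange; open triangles mark the limit of 3 counts where 0 UMIs were found. Cytl1 and Clu have intermediate levels in venous-like cells, Klk8 in clusters 5, 6 and 9 is no higher than in venous-like cells, and Klk8, Klk10 and Nupr1 differ several-fold among the main clusters.

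Klk8 and Klk10 encode secreted serine proteases of the tissue kallikrein family, which cleave extracellular proteins and are best known from skin and other epithelia, and which lie together in 1 gene array on chromosome 7. Klk10 (chr7:43781035-43785410) and Klk8 (chr7:43797577-43803826) are on the plus strand with 12166 bases between them, which hold Klk9. Klk10 was measured at 336 CPM (293 to 383) in wild-type and 276 CPM (256 to 297) in knockout cells of the main aortic clusters, with 33.6% (27.8 to 39.8) and 28.7% (25.9 to 31.7) of cells positive. It was at 0 UMIs in capillary-like and lymphatic-like cells of both libraries and in wild-type venous-like cells, and at 2.48 CPM, 1 UMI, in knockout venous-like cells. Klk8 was measured at 269 CPM (231 to 312) and 242 CPM (224 to 262) in the main clusters, with 39.6% (33.5 to 45.96) and 37.6% (34.5 to 40.8) of cells positive. In contrast to Klk10 it was also present in venous-like cells, at 106 and 164 CPM with 24.3% (11.8 to 41.2) and 32.2% (24.9 to 40.3) of cells positive. Capillary-like cells held 2 wild-type and 3 knockout UMIs of Klk8, and 3.39% (0.413 to 11.7) and 2.88% (0.599 to 8.20) of them were positive.

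The proteases divided the main aortic clusters in different ways. Klk8 was measured at 321, 481 and 383 CPM in clusters 0, 1 and 3 of the wild-type library, and at 104, 88.2 and 89.3 CPM in clusters 5, 6 and 9. In the knockout library the same clusters gave 278, 392 and 278 CPM against 84.3, 131 and 89.5 CPM. The first 3 clusters lay above the other 3 in both genotypes without overlap, and clusters 5, 6 and 9 were no higher than the venous-like cells. Klk10 was highest in cluster 1, at 704 CPM in wild-type and 527 CPM in knockout cells, and lowest in cluster 5, at 111 and 72.8 CPM, while clusters 6 and 9 held 288 to 441 CPM. Cluster 1, led by the serine protease inhibitor Serpina1b, was thus the highest of the main clusters for both proteases in both libraries, and clusters 6 and 9 were low for Klk8 but not for Klk10.

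The windows before both starts are shown because these neighbouring genes shared their highest cluster but not the vessel types outside it. They are chr7:43780804-43781053 for Klk10 and chr7:43797327-43797576 for Klk8 (GRCm38.p6, plus strand, 250 bases before the RefSeq start). Capitals mark CCACCC or its reverse complement GGGTGG, and the reverse complement of CCGGAA. The Klk10 window has 2 matches to the first, 108 and 52 bases before the start, and 1 to the second. The Klk8 window has none of the 6 motifs.

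Klk10: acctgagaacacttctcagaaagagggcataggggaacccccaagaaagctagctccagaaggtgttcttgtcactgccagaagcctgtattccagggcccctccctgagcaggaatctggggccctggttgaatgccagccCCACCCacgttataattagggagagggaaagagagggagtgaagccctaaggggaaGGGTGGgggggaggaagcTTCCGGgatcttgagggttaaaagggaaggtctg

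Klk8: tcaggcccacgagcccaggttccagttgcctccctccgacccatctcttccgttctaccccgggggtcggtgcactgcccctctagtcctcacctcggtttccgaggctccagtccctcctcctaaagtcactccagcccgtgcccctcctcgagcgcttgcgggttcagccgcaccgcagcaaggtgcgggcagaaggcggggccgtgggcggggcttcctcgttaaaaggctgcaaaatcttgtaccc

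Of the 26 kallikrein genes of the array, 10 had a UMI in any endothelial-like library. After Klk10 and Klk8 the most counted was Klk11, the next gene beyond Klk10, with 26 wild-type and 77 knockout aortic UMIs (31.1 and 24.8 CPM) and 0 in both lungs. Klk9, between the pair, had 0 and 8 aortic UMIs. An annotated antisense transcript, 2310002F09Rik, overlaps both genes and has no row of its own in the matrices used, and the sources used here do not say whether counting used strand. No 50-base stretch of the last 300 transcribed bases of any of the 7 genes occurs in transcripts of another gene.

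Clu encodes clusterin, a secreted chaperone that binds misfolded proteins and lipoproteins, on chromosome 14 (chr14:65968483-65981547, plus strand). It was measured at 6058 CPM (5872 to 6248) in wild-type and 7508 CPM (7402 to 7616) in knockout cells of the main aortic clusters, and 98.4% (96.0 to 99.6) and 99.0% (98.1 to 99.5) of cells were positive. Capillary-like cells held 50.4 and 148 CPM, lymphatic-like cells 35.6 and 243 CPM, and venous-like cells 477 and 717 CPM with 54.1% (36.9 to 70.5) and 67.8% (59.7 to 75.1) of cells positive. Its order over vessel types was that of Cytl1. Among the main clusters Clu had the smallest ratio of highest to lowest level of the 7 genes, from 5158 to 7906 CPM in wild-type and from 5207 to 8988 CPM in knockout cells. Unlike Cytl1, which was at 5015 and 5040 CPM in the mixed cluster 8, Clu was at 7328 and 10035 CPM there. Of the 193 wild-type Cytl1 UMIs of that cluster 93 came from 1 of its 10 cells, and the level without this cell was 3004 CPM. The 2 wild-type and 17 knockout smooth muscle-like cells held Clu at 579 and 1809 CPM.

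Adh7 encodes a class IV alcohol dehydrogenase, which oxidises retinol and other alcohols, on chromosome 3 (chr3:138217760-138233382, plus strand). It was measured at 433 CPM (384 to 486) in wild-type and 292 CPM (272 to 314) in knockout cells of the main aortic clusters, with 41.6% (35.4 to 48.0) and 36.1% (33.0 to 39.2) of cells positive. It was at 0 UMIs in venous-like and lymphatic-like cells of both libraries, and 1 wild-type and 2 knockout UMIs were found in capillary-like cells. Adh7 was lowest in the arterial-like cluster 9 (242 and 126 CPM), as Cytl1 was, and the other 5 clusters ranged from 422 to 522 CPM in wild-type and from 237 to 524 CPM in knockout cells.

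Nupr1 encodes a nuclear protein induced by cell stress that takes part in transcription, on chromosome 7 (chr7:126623249-126630861, minus strand). It was measured at 626 CPM (567 to 690) in wild-type and 680 CPM (649 to 713) in knockout cells of the main aortic clusters, with 52% (45.6 to 58.3) and 57.7% (54.4 to 60.8) of cells positive. Capillary-like cells held 1 and 0 UMIs and venous-like cells 53.0 and 74.5 CPM. It was also found in clusters kept out of the endothelial-like cells, of which the mixed cluster 8 did carry endothelial markers. Lymphatic-like cells held 119 and 291 CPM, the mixed cluster 8 held 1455 and 1174 CPM, and the smooth muscle-like cells held 2123 and 1925 CPM. In the wild-type library, 45 of the 56 UMIs of cluster 8 came from 1 of 10 cells, and its level without that cell was 330.4 CPM. Likewise 30 of the 33 wild-type smooth muscle-like UMIs came from 1 of 2 cells. Among the main clusters it was highest in cluster 5, led by Thbs1 and Frzb, at 1369 and 1307 CPM, and lowest in the arterial-like cluster 9, at 255 and 242 CPM, in both genotypes.

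Against capillary-like cells all 7 genes were at least 2-fold higher in the main aortic clusters in both genotypes, where 21.6% of all genes tested were so in the wild-type and 13.9% in the knockout library. Genes tested, in this and the other comparisons, averaged 50 CPM or more over both populations compared and had 30 UMIs or more in their sum. The count was 7 of 7 against lymphatic-like cells too (13.6% and 9.74% of all genes). Against venous-like cells it was 7 in the wild-type and 6 in the knockout library (9.08% and 6.47%), and the exception was Klk8, at ratios of 2.54 (95% interval 1.35 to 5.39) and 1.48 (1.15 to 1.94). Since the genes were picked for this pattern, nothing is read from these counts. The ratios to venous-like cells were 9.73 and 6.43 for Cytl1, 12.7 and 10.5 for Clu and 11.8 and 9.13 for Nupr1.

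Most single cells of the main aortic clusters held UMIs of several of the 7 genes. The median was 4 of the 7 per cell in both libraries, and 3 after thinning to 1000 UMIs. Cytl1 and Clu were each found in nearly all of these cells. The number per cell thus largely follows from the share of each gene and does not measure joint expression. At least 5 were found in 36.4% of wild-type and 34.9% of knockout cells (10.3% and 11.7% after thinning), and all 7 in 7 and 18 cells. The median was 0 in capillary-like cells, 2 in venous-like cells and 1 in lung large-vessel-like cells, in both genotypes. Klk10 was found in 51.5% of Klk8-positive and 21.9% of Klk8-negative wild-type cells, and in 42.1% and 20.7% of knockout cells. At equal depth these shares were 32.5% and 17.2% in the wild-type and 29.8% and 14.1% in the knockout library, so the order was the same in both. For Gkn3 and Adh7 the shares at equal depth lay closer, 31.3% and 28.3% in the wild-type and 26.2% and 17.8% in the knockout library. All of these shares pool the main aortic clusters, which differ in the levels of these genes, and cluster 1 was highest for both Klk8 and Klk10. Shares within single clusters were not computed, so cluster make-up and joint expression in single cells cannot be told apart here.

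**Figure D2:**
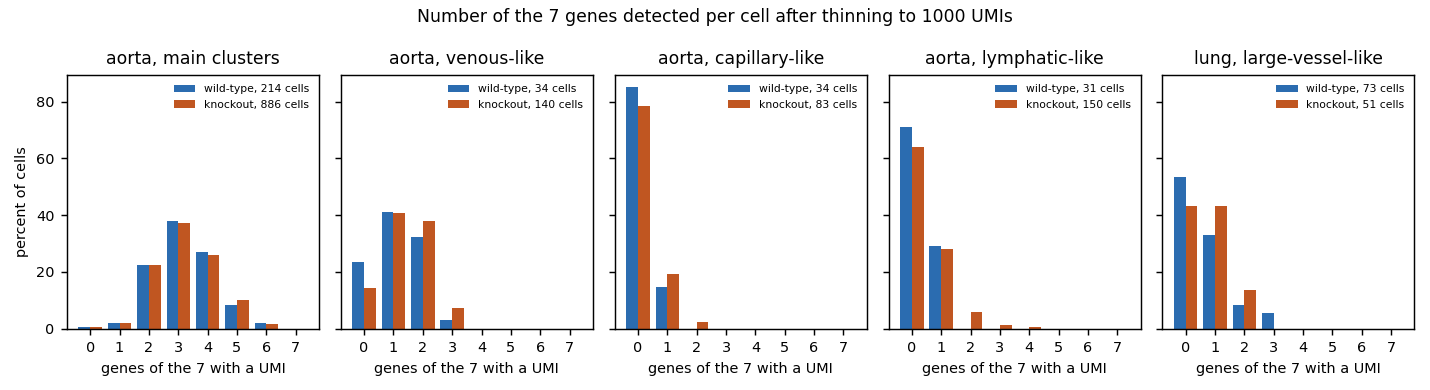
Percent of cells (vertical axis) by the number of the 7 genes with a UMI (horizontal axis) after each cell was thinned to 1000 UMIs, for 5 populations and both genotypes. Cells of the main aortic clusters centre on 3 genes in both libraries, and capillary-like cells on 0.

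Over the 19 cluster-by-genotype sums of the aorta, which come from 10 clusters of 2 libraries and share depth within a library, Cytl1 and Clu ran most closely together among the 7 genes (Pearson r = 0.96 of log2 CPM with 10 CPM added) and Klk8 and Nupr1 least (r = 0.41). Klk8 and Klk10 had r = 0.76. The sums include capillary-like, venous-like and lymphatic-like clusters, and the 7 genes were picked on their levels over these vessel types. Correlations among the 7 are therefore in part given by that choice, and nothing is read from their height. Among 4789 other genes those closest to Cytl1 included Emp2, Pde3a, Gata6 and Htra1 (r from 0.95 to 0.97), and the closest to Clu were Htra1, Ptprj, Ptgis, Tm4sf1 and Pi16. Gkn3 was closest to Gja5, an arterial gap junction gene, at r = 0.96, followed by Mgst3, Ptgis, Hey2 and Htra1. Klk10 was closest to its genomic neighbour Klk11 (r = 0.93), then to Perp, Pdlim2, Krt80 and Ptprj. Adh7 was closest to Perp, Efna5, Ptgis, Mgst3 and Sfrp1, and Nupr1 to Eln, which encodes elastin, then to Nt5e, Ltbp3, Sulf2 and Rcn3. Klk8 had the weakest best match of the 7, Mal at r = 0.88, followed by Efemp1, Ccdc68, Pecam1 and Ptgs1.

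The lung libraries hold endothelial cells of another organ of the same groups of mice. In these, 2 clusters were called large-vessel-like from 1 list of lung venous and large-vessel markers, which does not separate veins from arteries. Cluster 4 was led by Slc6a2, Vcam1 and Vwf, and cluster 8 by Mgp, Gja5 and Bmx. Together they held 86 wild-type and 64 knockout cells. Cluster 1 was aerocyte-like. Clusters 0, 2, 3, 5 and 6 had no class name of their own and are called the residual lung clusters. General capillary markers (mean of the 5 best-detected) were found in 81.8% to 90.2% of their cells. The same mean was 71.5% and 74.1% in clusters 4 and 8 and 40.8% in cluster 1.

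Over all endothelial-like cells, all 7 genes were at least 2-fold higher in the aorta than in the lung in both genotypes, where 8.71% of all genes tested in the wild-type and 8.47% in the knockout were so. Cytl1 stood at 16992 CPM in the aorta and 232 CPM in the lung of the wild-type, and at 15775 and 255 CPM in those of the knockout. The aorta-to-lung ratios were 73.2 (65.4 to 82.2) and 62.0 (54.4 to 70.9). Both aortic libraries were far above both lung libraries, with no overlap of their intervals, and with every cluster weighted alike the ratios were 37.5 and 27.3.

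Gkn3, Klk10 and Adh7 were close to absent from lung endothelial-like cells. In the aorta Gkn3 stood at 280 CPM (wild-type) and 380 CPM (knockout), Klk10 at 266 and 226 CPM and Adh7 at 344 and 240 CPM. In the lung Gkn3 and Klk10 each had 1 wild-type and 0 knockout UMIs, and Adh7 had 0 wild-type UMIs and 1 knockout UMI. The knockout aorta was at least 112-fold higher than the knockout lung for Gkn3 and at least 67.01-fold for Klk10, and the wild-type aorta at least 152-fold higher than the wild-type lung for Adh7. With 1 lung UMI the other ratios are poorly bounded, for example 371 (65.9 to 14701) for Gkn3 in the wild-type. The 14 Adh7 UMIs in the rest of the wild-type lung library lay in non-endothelial cells. Nupr1 was at 503 and 566 CPM in the aorta and had 5 wild-type and 0 knockout lung UMIs in endothelial-like cells, a ratio of 133 (56.6 to 412) in the wild-type and at least 168 in the knockout. Lung lymphatic-like cells carried Nupr1 at 180.2 and 337 CPM, with 17 and 15 UMIs. Over all kept cells the aorta-to-lung ratios of Nupr1 were 11.4 and 10.9. Most lung UMIs behind these ratios lay outside the lymphatic-like cells: 44 of 69 wild-type UMIs were in the 15 fibroblast-like cells, and 45 of 64 knockout UMIs were in 1 cell of the unnamed cluster 9. Without this cell the knockout ratio was 35.1.

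Klk8 had the smallest aorta-to-lung ratio of the 7 genes. It stood at 228 CPM (wild-type) and 221 CPM (knockout) in the aorta and at 65.0 and 56.3 CPM in the lung, with ratios of 3.50 (2.70 to 4.57) and 3.92 (2.94 to 5.33). In the lung it was spread over vessel types. Of lung endothelial-like cells 10.7% (8.50 to 13.2) and 9.17% (6.71 to 12.2) had a UMI of it. Large-vessel-like cells held 61.9 and 76.8 CPM, aerocyte-like cells 83.5 and 80.0 CPM and the residual lung clusters 58.0 and 41.3 CPM. Within a library the intervals of all 3 overlapped. Lung lymphatic-like cells had 0 UMIs of it in both libraries.

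Cytl1 had its lung signal in the large-vessel-like cells. These held 1655 CPM (1471 to 1855) in wild-type and 1494 CPM (1301 to 1708) in knockout cells, with 44.2% (33.5 to 55.3) and 48.4% (35.8 to 61.3) of cells positive at median depths of 1687 and 1896.5 UMIs. All other lung endothelial-like cells held 11.4 and 16.1 CPM, with 1.46% (0.670 to 2.76) and 2.72% (1.36 to 4.81) positive at median depths of 1614.5 and 1678 UMIs. The ratios were 146 (83.9 to 277) and 92.7 (52.0 to 182), and Cytl1 was the 1 gene of the 7 at least 2-fold higher in lung large-vessel-like cells in each genotype, where 6.1% and 5.26% of all genes tested were so. The knockout ratio ran from 40.1 (mean of per-cell CPM) to 260.1 (stricter cell filter) over the other settings tried. Aortic venous-like cells, at 2171 and 2924 CPM, were above the lung large-vessel-like cells. The main aortic clusters exceeded lung large-vessel-like cells 12.8-fold in the wild-type and 12.6-fold in the knockout. All 7 genes were at least 2-fold higher in that comparison (9.73% and 9.63% of all genes tested).

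Clu, by contrast, had its lung signal in aerocyte-like cells. These held 961 CPM (859 to 1072) in wild-type and 1492 CPM (1332 to 1665) in knockout cells, with 73.7% (65.3 to 80.9) and 75.8% (66.1 to 83.8) of cells positive. Large-vessel-like cells held 220 and 258 CPM and the residual lung clusters 85.2 and 125.9 CPM. Aerocyte-like cells were the highest in both libraries with no overlap of intervals. Their ratios to the residual lung clusters were 11.3 (8.67 to 14.8) and 11.8 (9.08 to 15.7). Clu was the 1 gene of the 7 at least 2-fold higher in that comparison (10.1% and 10.2% of all genes tested). Against all other lung endothelial-like cells, the large-vessel-like cells were lower in Clu, at ratios of 0.643 (0.450 to 0.895) and 0.501 (0.347 to 0.703). Cytl1 and Clu, which ran together over the aortic clusters, thus had their lung signal in different vessel types.

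**Figure D3:**
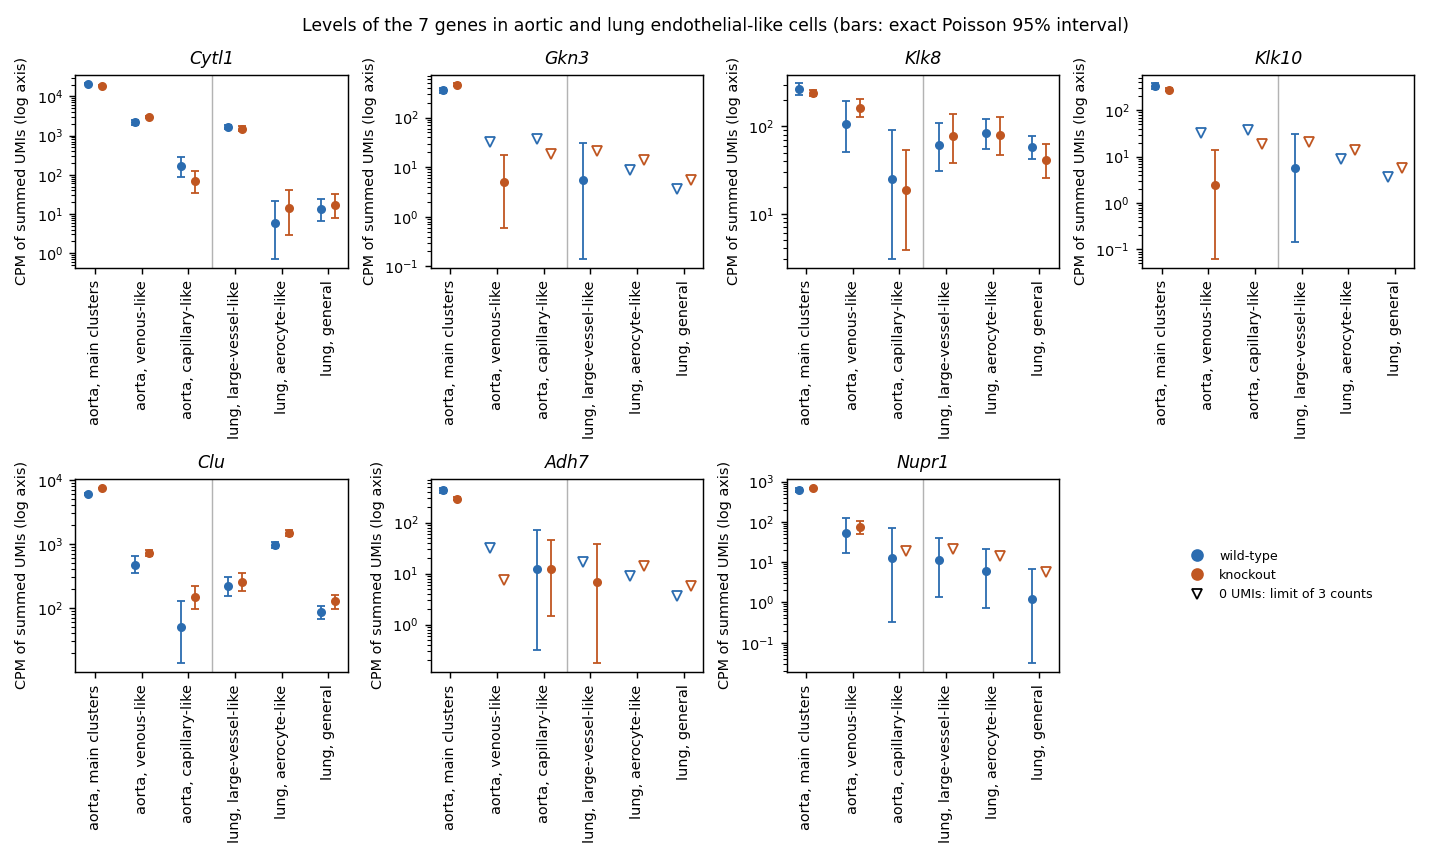
Level of each gene in CPM on a log axis in 3 aortic and 3 lung populations, wild-type in blue and knockout in orange, with 95% Poisson intervals and open triangles at the limit of 3 counts where 0 UMIs were found. Cytl1 stands above the rest of the lung in large-vessel-like cells, Clu in aerocyte-like cells, Klk8 is at similar levels in all 3 lung populations, and the other 4 genes are at or near 0 there.

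**Figure D4:**
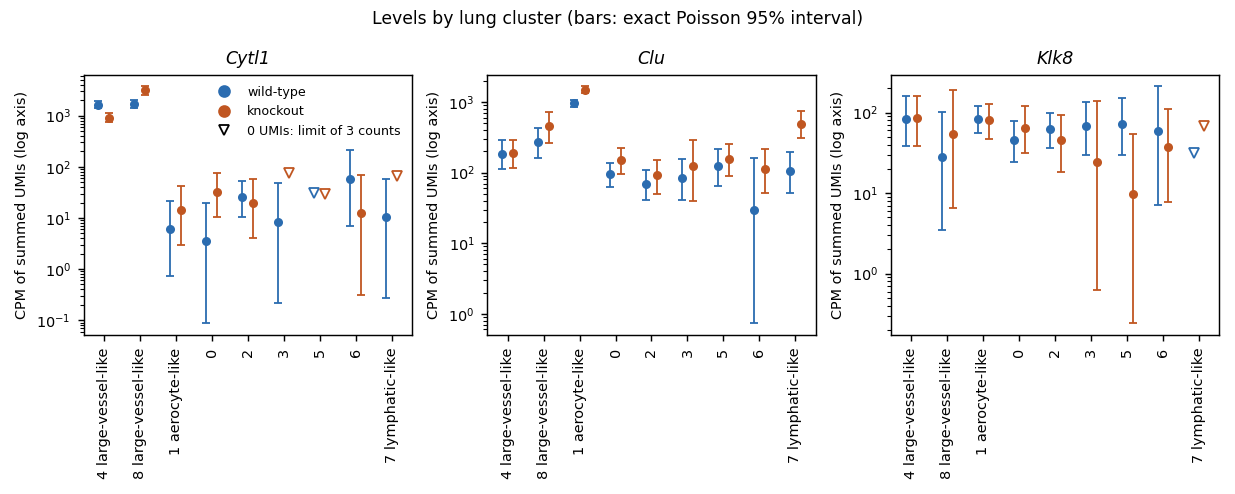
Cytl1, Clu and Klk8 by lung cluster in CPM on a log axis, wild-type in blue and knockout in orange, with 95% Poisson intervals and open triangles at the limit of 3 counts where 0 UMIs were found. Cytl1 is high in clusters 4 and 8, Clu in the aerocyte-like cluster 1, and Klk8 has no cluster that stands apart.

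No gene of the 7 differed at least 2-fold between the genotypes in the aortic endothelial-like cells, where 0.236% of all 2971 genes tested were at least 2-fold higher in the knockout and 0.74% lower. The same held in the lung for the 3 genes measured there, Cytl1, Klk8 and Clu, against 0.447% and 0.179% of all genes. The smaller differences are ratios of 1 library to 1 library. Clu had a knockout-to-wild-type ratio of 1.29 (1.24 to 1.33) in the aorta and 1.46 (1.27 to 1.67) in the lung, so it was higher in the knockout library of both organs beyond counting error. It was higher in 7 of the 8 aortic endothelial-like clusters compared 1 by 1 and in 8 of 8 lung clusters, of which only the aerocyte-like cluster exceeded its interval (1.55, 1.33 to 1.82). The exception in the aorta was the arterial-like cluster 9, at 0.847 (0.764 to 0.940).

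Gkn3 had an aortic ratio of 1.36 (1.18 to 1.57), and a ratio above 1 in 7 of the 7 clusters with any UMI, 3 of them beyond the interval. Among the 7, venous-like cluster 4 had only 2 knockout and 0 wild-type UMIs, too few to give a direction. In cluster 0 the ratio was 1.04 (0.746 to 1.47). For Adh7 the ratio was 0.698 (0.608 to 0.803), below 1 in 6 of 7 clusters, 4 of them beyond the interval. Capillary-like cluster 7, counted among the 6, had only 2 knockout UMIs and 1 wild-type UMI of Adh7. Both genes belong to the same aortic clusters, and their ratios lay on opposite sides of 1. Cytl1 had a ratio of 0.928 (0.911 to 0.946), Klk10 of 0.852 (0.731 to 0.995), Nupr1 of 1.13 (1.01 to 1.25) and Klk8 of 0.970 (0.824 to 1.14). The direction held under every other setting tried for Gkn3, Clu, Adh7 and Nupr1, whereas the ratio crossed 1 in 1 setting for Cytl1 (1.03, mean of per-cell CPM), in 2 for Klk10 and in 6 for Klk8. In the main aortic clusters alone the ratios were 0.890 for Cytl1, 1.31 for Gkn3, 0.901 for Klk8, 0.823 for Klk10, 1.24 for Clu, 0.676 for Adh7 and 1.09 for Nupr1. In the lung the interval of Cytl1 (1.10, 0.919 to 1.31) and of Klk8 (0.866, 0.599 to 1.24) included 1. The lung ratio of Cytl1 pooled cluster 4, at 1640 CPM in wild-type and 917 CPM in knockout, with cluster 8, at 1677 and 3127 CPM. In knockout cluster 8, 49 of 117 UMIs came from 1 of 21 cells, and the level without that cell was 2066 CPM. Which of these differences exceed the spread between mice cannot be told from 1 library per group.

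**Figure D5:**
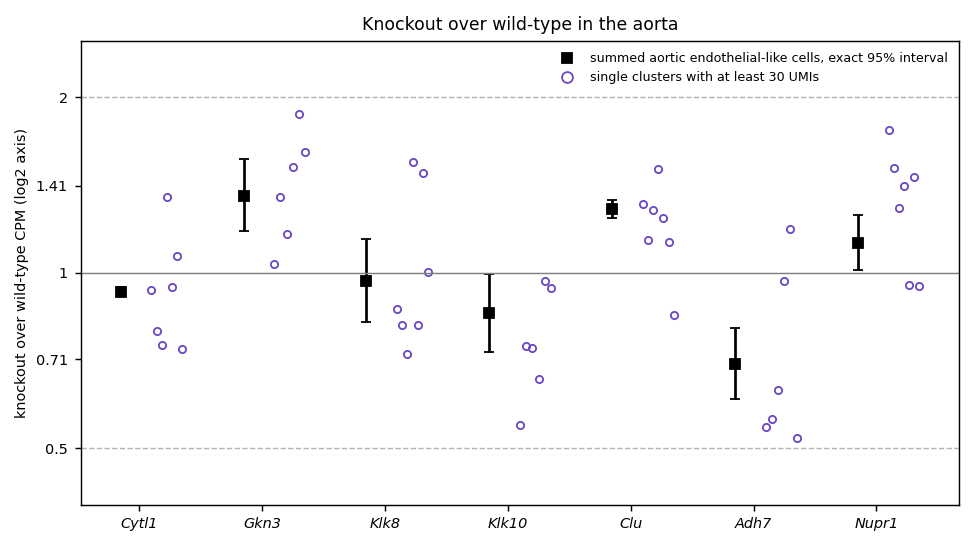
Knockout-to-wild-type ratio of each gene's CPM in the aorta on a log2 axis, as squares with exact 95% intervals for all endothelial-like cells summed and as circles for single clusters with at least 30 UMIs, with dashed lines at 0.5 and 2. All summed ratios lie between the dashed lines, with Gkn3 (1.36) and Clu (1.29) above 1 and Adh7 (0.698) below 1.

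Genes related to the 7 by family or pathway were taken from lists written for this account. Of 25 other kallikrein genes none reached the level needed to be tested between organs or genotypes. Of 27 genes of alcohol and retinoid metabolism, 8 were measured between aorta and lung, and in both genotypes 3 exceeded the lung by at least 2-fold (8.71% and 8.47% of all genes) and 2 were at or below 0.5 of its level (16.2% and 16.4% of all genes). Among the higher ones were Adh1, another alcohol dehydrogenase (217 and 192 CPM in the aorta of wild-type and knockout against 3.02 and 1.13 CPM in the lung), and Cyp1b1, a monooxygenase (187 and 159 against 1.51 and 3.38 CPM). The lower ones were the aldehyde dehydrogenase Aldh2, at ratios of 0.390 and 0.429, and Cyp26b1, which breaks down retinoic acid, at 0.240 and 0.241. The list's median log2 ratio was -0.11 in the wild-type and 0.15 in the knockout, against -0.11 and -0.12 for all genes.

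A list of 13 genes joined the integrated stress response, to which Nupr1 is tied, with the ferritin genes Fth1 and Ftl1. Of these 13 genes, 7 were measured in both genotypes. The ferritin heavy chain gene Fth1 was at least 2-fold higher in the aorta (2.09 and 2.62), and the transcription factors Atf3 (0.389 and 0.363) and Atf4 (0.415 and 0.349) were at least 2-fold lower. The other 4 lay within 2-fold, and the list's median log2 ratio was 0.13 in the wild-type and -0.31 in the knockout. Of 13 genes of the protease inhibitor and receptor list, 2 were measured in the wild-type and both were past 2-fold on the aortic side: the thrombin receptor F2r, a protease-activated receptor (7.76), and the inhibitor Serpinb6a (2.02). In the knockout library F2r had a ratio of 7.15 and Serpinb6a of 1.90, the latter within 2-fold. Neither measured BRICHOS gene, Itm2b or Itm2c, passed 2-fold. Of the clusterin-related list 2 genes were measured and 1, Apoe, was at least 2-fold lower in the aorta (0.269 and 0.353), at 68.3 and 75.6 CPM there against 253 and 214 CPM in the lung. Apoe is the gene that the submitters describe as knocked out in this line, and these counts give no check of that label. Ccr2, listed as a receptor for Cytl1, was not measured. Of 25 reference genes of large arteries 22 were measured, with 11 past 2-fold on the aortic side in each genotype and 7 and 6 on the lung side, and a median log2 ratio of 1.80 and 1.55. Of all genes tested 8.71% and 8.47% were that far on the aortic side and 16.2% and 16.4% on the lung side, with medians of -0.11 and -0.12.

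Between the genotypes in the aorta, 0 of the 7 measured genes of alcohol and retinoid metabolism passed 2-fold in either direction. The same held for 0 of 7 genes of the stress-response and ferritin list and 0 of 20 large-artery reference genes. The shares over all genes tested were 0.236% at least 2-fold higher in the knockout and 0.74% at least 2-fold lower. Adh1 had a ratio of 0.884 (0.748 to 1.05), beside 0.698 for Adh7. Of 3 measured genes of the protease inhibitor and receptor list, 1 passed: Serping1, which encodes the C1 inhibitor, stood at 32.3 CPM (wild-type) and 93.3 CPM (knockout), a ratio of 2.88 (1.94 to 4.45). Serping1 was also among the leading genes of the fibroblast-like lung cluster, and the part of fibroblast RNA in this ratio was not tested.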

How the data were processed

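UMI counts per gene and cell were used as deposited. The submitters' processing notes name Cell Ranger and mm10 as what the authors used to make these counts; the version and the annotation are in none of the sources used here. The aortic matrices name genes by symbol. Of the Ensembl identifiers in the lung matrices, 30934 matched GENCODE M21 and 119 did not. Cells were kept at 500 or more UMIs and at most 15% mitochondrial UMIs, which left 404 wild-type and 1569 knockout cells of the aorta and 775 and 508 of the lung. Scrublet called 3, 3, 10 and 4 doublets in that order, a share under 0.5% in the knockout aorta (0.191%), where it cannot be said to have worked. They were kept, and removed as an alternative. Free RNA was not corrected for. Cells were clustered per tissue in scanpy 1.11.5 (counts scaled to 10000 and log-transformed, 2000 variable genes, 30 principal components, 15 neighbours, Leiden resolution 1) without the 7 genes. Clusters were named from marker lists, which can differ from the authors' own names.

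UMIs were summed per population and library and divided by their total to give CPM. Levels have exact Poisson, shares exact Clopper-Pearson and ratios exact conditional 95% intervals (scipy 1.17.1), for counting error only; the ratio code was tested on simulated counts. Genes at a mean of 50 CPM and 30 UMIs in both libraries together entered a comparison and were counted at 2-fold. Where a library had 0 UMIs, 3 counts were taken as its upper limit. The 7 genes, the related lists and the markers were chosen with earlier results of these data known. The named genes are the 7, the 5 genes most correlated with each over aortic clusters of at least 20 cells and at least 100 UMIs per gene, and measured genes of the related lists; some genes that this rule names are not reported here. Other cell filters, doublet removal, thinning to 1000 UMIs, per-cell means, clusters weighted alike, leaving out the top cell and other clusterings were tried as alternatives.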

Additional observations from a re-analysis of the deposited data

Results flagged for a closer look

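The knockout-to-wild-type ratio of 2 of the 7 genes pointed in opposite directions in different clusters of an organ, with 95% counting intervals that leave out 1 when all cells are counted; the difference between clusters was not tested, because each genotype is 1 library. In the aorta the ratio of Clu was 1.51 (95% interval 1.10 to 2.11) in the venous-like cluster 4 and 0.847 (0.764 to 0.940) in the arterial-like cluster 9. In the same clusters the ratio of Cytl1 was 1.35 (1.16 to 1.57) and 0.739 (0.691 to 0.791). In the lung the ratio of Cytl1 was 1.86 (1.43 to 2.43) in large-vessel-like cluster 8, led by Mgp, Gja5 and Bmx, and 0.559 (0.432 to 0.720) in large-vessel-like cluster 4, led by Slc6a2, Vcam1 and Vwf. The knockout lung clusters held 21 and 43 cells, and 49 of the 117 Cytl1 UMIs of knockout cluster 8 came from 1 cell. Without that cell the ratio in cluster 8 was 1.23 (0.90 to 1.67), an interval that includes 1. Without the cell with most Cytl1 UMIs in each library it was 1.54 (1.11 to 2.13), and 0.516 (0.386 to 0.685) in cluster 4.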

How the results depend on the processing

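No paired analysis was possible because each group is 1 library and no result comes from a test. Of 188 summary values recomputed under alternatives, 177 were within 1.5 times the reported value and 11 were not. These values were counts of the 7 genes past 2-fold in level or in share of positive cells, and the median number of genes per cell. Of 465 ratios of single genes 408 moved by less than their interval, 57 by more, and none reversed a 2-fold call. The count of genes at least 2-fold lower in knockout than wild-type lung was 1 in place of 0 over all kept cells, through Adh7 in wild-type non-endothelial cells. In wild-type lung large-vessel-like cells 2 genes in place of 1 were higher at Leiden resolution 0.5 (Cytl1 and Nupr1), and 1 in place of 0 was lower with lung cluster 8 only (Klk8, 0.434). In the knockout library 1 gene in place of 0 was lower, Clu, whose ratio of 0.501 lies at the border, without a cell filter, with the stricter filter, with doublets removed, at Leiden resolution 0.5 and 1.5, with thinned cells, without the top cell and with lung cluster 4 only. The alternatives on aortic cluster 8, on the main aortic clusters alone, on single lung clusters and on single clusters without their top cell were chosen after seeing the data. Depth limits Gkn3, Klk10, Adh7 and Nupr1 in the lung, where 0 to 5 UMIs per library give lower bounds or wide intervals, and 37 wild-type venous-like and 59 capillary-like cells limit the rarer vessel types.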
